A study of Arabidopsis thaliana with 6 samples.

Results

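SIAMESE (SIM) and its SIAMESE-RELATED (SMR) relatives are small plant proteins that inhibit cyclin-dependent kinases (CDK). The 9 best-known Arabidopsis thaliana members were examined: SIM, SMR1 (listed as LGO), SMR2 (AT1G08180), SMR3 (AT5G02420), SMR4, SMR5, SMR6 (AT5G40460), SMR7 and SMR8 (AT1G10690). They were picked by name from a table of 33511 rows, and all 9 had a row. RNA came from whole Col-0 seedlings, homozygous for a transgene of pER8, a vector that responds to estradiol, and MUTE cDNA. The estradiol group received 10 µM estradiol in liquid medium and the mock group DMSO, the solvent, for 8 h each. Each group had 3 libraries, each from 40 to 50 seedlings grown for 4 days before the bath. Both groups carried the construct, so an effect of MUTE and an effect of estradiol or of the vector's activator cannot be told apart. Nothing in the labels says whether the replicates were grown separately, and the p-values measure the spread between these libraries.

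CDKs with their cyclins drive the plant cell through DNA replication and division. SIM and SMR proteins bind such complexes and block the kinase, and cells in which they prevail can leave mitosis and go on replicating DNA, a cycle without division called endoreplication. SIM keeps trichomes single-celled, LGO is needed for the giant cells of the sepal epidermis, and SMR5 and SMR7 are known as genes switched on by DNA damage through the transcription factor SOG1. MUTE, a basic helix-loop-helix (bHLH) transcription factor, commits a stomatal precursor to the 1 symmetric division that makes a pair of guard cells. SMR4 is known from later work as a target of MUTE that slows the cycle before that division.

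In the RefSeq annotation of assembly TAIR10.1 all 9 members had 1 exon block and a short coding region, from 219 bases in SMR4 to 387 in LGO. SMR4 (AT5G02220) lies on chromosome 5 and LGO (AT3G10525) on chromosome 3, both on the minus strand. The upstream sequences of the members that rose and fell are shown because MUTE belongs to a protein class that binds E-boxes, the letters CANNTG. The pattern CANNTG is its own reverse complement, so 1 search covers both strands, and matches may overlap. The capitals mark every match, the sequences run 5′ to 3′ on the gene's strand, and both are RefSeq TAIR10.1 sequence. The SMR4 stretch, chr5:442488-442787, runs from 600 to 301 bases before the annotated gene start and was placed where its CACGTG matches lie, and the LGO stretch, chr3:3282132-3282381, from 250 to 1.
SMR4: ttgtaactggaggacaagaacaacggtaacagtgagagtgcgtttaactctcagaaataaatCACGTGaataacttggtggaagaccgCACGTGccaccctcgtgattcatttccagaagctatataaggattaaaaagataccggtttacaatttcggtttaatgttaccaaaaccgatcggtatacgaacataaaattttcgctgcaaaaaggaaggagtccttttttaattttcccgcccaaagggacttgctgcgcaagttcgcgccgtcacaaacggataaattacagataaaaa
LGO: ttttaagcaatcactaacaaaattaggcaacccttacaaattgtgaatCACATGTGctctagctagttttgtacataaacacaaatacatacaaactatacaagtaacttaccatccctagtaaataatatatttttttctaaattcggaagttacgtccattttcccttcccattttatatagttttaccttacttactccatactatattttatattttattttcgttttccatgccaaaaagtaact

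Both matches in the SMR4 stretch were CACGTG, the G-box form, and began 538 and 512 bases before the gene start. The 250 bases next to SMR4 held no CANNTG, as did those next to SMR3, SMR6 and SMR8. In the LGO stretch 2 matches overlapped, starting 202 and 200 bases before the gene. Of 27443 nuclear protein-coding genes, 55.3% had a CANNTG within 250 bases and 96.2% within 1000 bases, so its presence sets no member apart. Within 1000 bases SMR4 had 3 matches, LGO and SIM had 6 each and SMR5 had 7, against a median of 3 over all genes. At least 6 were found for 16.3% of genes, and at least 7 for 8.41%. At least 1 CACGTG within 1000 bases was found for 14.8% of genes, and among the members for SMR3, SMR4 and SMR5. At least 2, a cutoff equal to SMR4's own count, were found for 2.67% of genes, and among the members for SMR4 and SMR5. A match is a run of letters and not evidence of binding.

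The libraries were alike in scale. Their FPKM totals (fragments scaled for transcript length and library size) ran from 461556 to 469530, which says nothing about sequencing depth. More rows stood at 0 in estradiol 1 (9514) and estradiol 3 (9182) than in the other libraries (8559 to 8679). MUTE averaged 2986 ± 54.8 FPKM in estradiol and 2.37 ± 0.817 FPKM in mock libraries (SD, n = 3 each), and an exact two-sided permutation test gave p = 0.1, the smallest possible with 3 against 3. The shoot genes RBCS1A and PSBO1 were detected in both groups and did not pass the test described next (log2 fold changes 0.06 and 0.01), whereas 3 flower genes and 2 seed storage genes averaged at most 0.153 FPKM. Genes with at least 1 FPKM in at least 3 libraries were tested with limma on log2(FPKM + 1), and 36.2% of these 19134 genes had an adjusted p under 0.05 (23.3% higher and 12.9% lower with estradiol). All 5 root genes checked were detected in both groups. Of these, CASP1, an endodermis gene, rose by 0.28 (limma adjusted p 0.0024), the root hair genes EXPA7 and COBL9 fell by 0.40 and 0.28 (0.000532 and 0.00877), and SCR and PLT1 did not pass (0.10 and -0.09). Of all calls 64.3% were higher, a share of 52.8% after quantile normalization and 46.8% after median-of-ratios scaling.

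SMR4 rose and LGO fell with estradiol, and 6 other members did not pass the threshold. SMR5 was too low to be tested. The 2 calls stand against the 36.2% of all genes called, so the number of members that changed was not high. The median log2 fold change of the 8 tested members was -0.01, beside 0.05 for all genes. SMR4 and LGO were also the members whose groups did not overlap, 2 of 9, where 51.0% of tested genes had groups apart.

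SMR4 stood at 4.05, 3.16 and 3.69 FPKM in estradiol 1, 2 and 3, against 0.60, 1.06 and 0.96 FPKM in mock 1, 2 and 3. Every estradiol library was above every mock library. The mean was 3.63 ± 0.448 FPKM in estradiol and 0.873 ± 0.242 FPKM in mock libraries (SD, n = 3 each), a ratio of means of 4.16. The log2 fold change was 1.31 (SE 0.110, limma adjusted p 0.00011), which ranked 41 from the highest among the 19134 tested genes. Because it adds 1 to values near 1, this scale understates the change, and with 0.1 added the fold change was 1.97. SMR4 met the minimum level through its estradiol libraries, since only mock 2 reached 1 FPKM. A minimum of 1 FPKM on the mean of all 6 libraries, chosen after seeing the data, also kept it (limma adjusted p 0.000113). That mean too is raised by the estradiol libraries, so keeping SMR4 this way gives no separate support.

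LGO, the most abundant member in both groups, stood at 19.50, 21.61 and 22.93 FPKM in estradiol 1, 2 and 3, against 29.94, 28.84 and 31.54 FPKM in mock 1, 2 and 3. The lowest mock value was above the highest estradiol value. The mean was 21.4 ± 1.73 FPKM in estradiol and 30.1 ± 1.36 FPKM in mock libraries (SD, n = 3 each). The log2 fold change was -0.48 (SE 0.0604, limma adjusted p 0.000767), ranked 587 from the lowest. Of the 5 root genes checked, 2 fell as well and 1 rose. Their summed level, in which rises and falls can cancel, was 55.4 to 56.1 FPKM in estradiol and 53.2 to 57.9 FPKM in mock libraries. The part of root genes in the fall of LGO was not tested. In bulk tissue, fewer cells that express LGO and less LGO RNA per cell cannot be told apart. The gene AT3G10527 on the other strand overlaps LGO over 375 bases, and 32.7% of LGO's 50-base stretches also lie in exons of another gene. Libraries were stranded, but whether strand was used in counting is not given in the sources used here.

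SIM stood at 13.95, 15.12 and 18.09 FPKM in estradiol 1, 2 and 3, against 19.01, 17.76 and 18.68 FPKM in mock 1, 2 and 3. Estradiol 1 and 2 were below all mock libraries, while estradiol 3 lay inside their range. The log2 fold change of -0.23 missed the threshold (limma adjusted p 0.0621), with an unadjusted 95% interval from -0.42 to -0.04. Without estradiol 3 it was -0.33 and passed (adjusted p 0.00461), and it passed under both rescalings (limma adjusted p 0.0409 after quantile normalization and 0.0401 after median-of-ratios scaling). SIM shares 338 bases of its span with AT5G04475 on the other strand.

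SMR8 (AT1G10690) stood at 2.32, 4.07 and 4.12 FPKM in estradiol 1, 2 and 3, against 2.67, 2.42 and 2.69 FPKM in mock 1, 2 and 3. Estradiol 2 and 3 were above all mock libraries and estradiol 1 was below them. The log2 fold change of 0.30 did not pass (limma adjusted p 0.165, unadjusted 95% interval -0.06 to 0.65). Without estradiol 1 it was 0.50 and passed, with an adjusted p of 0.00113. Estradiol 1 was also the library with the most rows at 0, and the part of that difference in this value was not tested.

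Of the pair known from DNA damage, SMR7 stood at 0.98, 2.08 and 1.0 FPKM in estradiol 1, 2 and 3, against 0.74, 1.05 and 1.39 FPKM in mock 1, 2 and 3. Its highest value was that of estradiol 2, and the other estradiol libraries lay within the mock range. Its log2 fold change came to 0.17 (limma adjusted p 0.495; unadjusted 95% interval -0.25 to 0.60), and -0.04 without estradiol 2. SMR5 stood at 0.81, 0.26 and 0.31 FPKM in estradiol 1, 2 and 3, and was listed at 0 in mock 1 and at 0.60 FPKM in both mock 2 and mock 3. The groups overlapped, and without a minimum level limma gave an adjusted p of 0.857 for a log2 fold change of 0.07. The annotated SMR5 gene of 266 bases lies wholly inside AT1G07510 (listed as ftsh10) on the other strand, which had 12.2 to 12.8 FPKM in estradiol and 10.4 to 10.9 FPKM in mock libraries. SMR5 values are therefore uncertain.

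The other 3 members differed between groups by less than their spread. SMR2 (AT1G08180) stood at 7.21, 6.74 and 6.79 FPKM in estradiol 1, 2 and 3, against 7.75, 6.62 and 7.11 FPKM in mock 1, 2 and 3. The groups overlapped, with a log2 fold change of -0.04 (limma adjusted p 0.605, unadjusted 95% interval -0.18 to 0.09). SMR3 (AT5G02420) stood at 3.46, 3.70 and 3.07 FPKM in estradiol 1, 2 and 3, against 3.29, 3.54 and 4.22 FPKM in mock 1, 2 and 3. The groups overlapped, with a log2 fold change of -0.08 (limma adjusted p 0.473, interval -0.28 to 0.11). SMR6 (AT5G40460) stood at 2.31, 1.69 and 1.87 FPKM in estradiol 1, 2 and 3, against 1.58, 2.15 and 1.96 FPKM in mock 1, 2 and 3. Here too the groups overlapped, with a log2 fold change of 0.03 (limma adjusted p 0.844, interval -0.20 to 0.26).

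**Figure D1:**
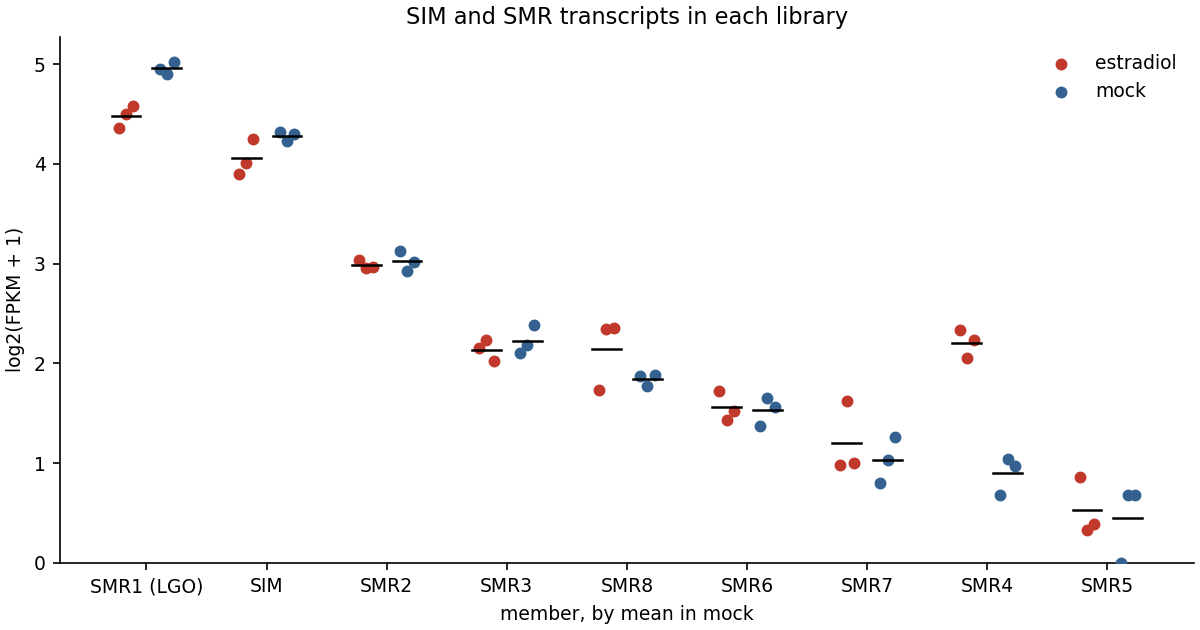
Level of each member as log2(FPKM + 1) in the 3 estradiol (red) and 3 mock (blue) libraries, drawn as points, with a line at the group mean. SMR4 and SMR1 (LGO) are the members whose points do not overlap between groups, and SMR8 has 1 estradiol point below the mock points.

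The order of the members, compared per length in FPKM, was the same at the top in both groups. In estradiol libraries LGO came before SIM at 15.7 ± 2.13 FPKM and SMR2 at 6.91 ± 0.258 FPKM (SD, n = 3), each apart from the next. In mock libraries SIM was at 18.5 ± 0.648 FPKM and SMR2 at 7.16 ± 0.567 FPKM (SD, n = 3), again each apart from the next. Lower down the order differed. With estradiol SMR4 was 4th by mean, and its values overlapped those of SMR8 (3.50 ± 1.03 FPKM), which in turn overlapped those of SMR3 (3.41 ± 0.318 FPKM). In mock libraries SMR4 was 8th, its values overlapping those of both SMR7 (1.06 ± 0.325 FPKM) and SMR5 (0.40 ± 0.346 FPKM).

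The shares of SMR4 and LGO among the family's transcripts followed these changes. FPKM summed over the 9 members came to 54.6, 58.4 and 61.9 in estradiol 1, 2 and 3, against 65.6, 64.0 and 69.2 in mock 1, 2 and 3. The sum was thus lower in every estradiol library than in any mock library, and no test is given for a sum over chosen members. LGO carried this net difference. Without it the sum was 35.1, 36.8 and 38.9 in estradiol 1, 2 and 3, against 35.6, 35.2 and 37.6 in mock 1, 2 and 3, and the groups overlapped. Within that remainder the SMR4 mean was higher with estradiol (3.63 against 0.873 FPKM). The SIM mean was lower (15.7 against 18.5 FPKM), although SIM did not pass the threshold. LGO made up 36.6% ± 0.752 of the sum in estradiol and 45.4% ± 0.347 in mock libraries (SD, n = 3 each). SMR4 made up 6.26% ± 1.04 in estradiol and 1.32% ± 0.375 in mock libraries. SIM had a share of 26.9% ± 2.04 in estradiol, against 27.9% ± 1.002 in mock libraries, a difference within the spread.

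**Figure D2:**
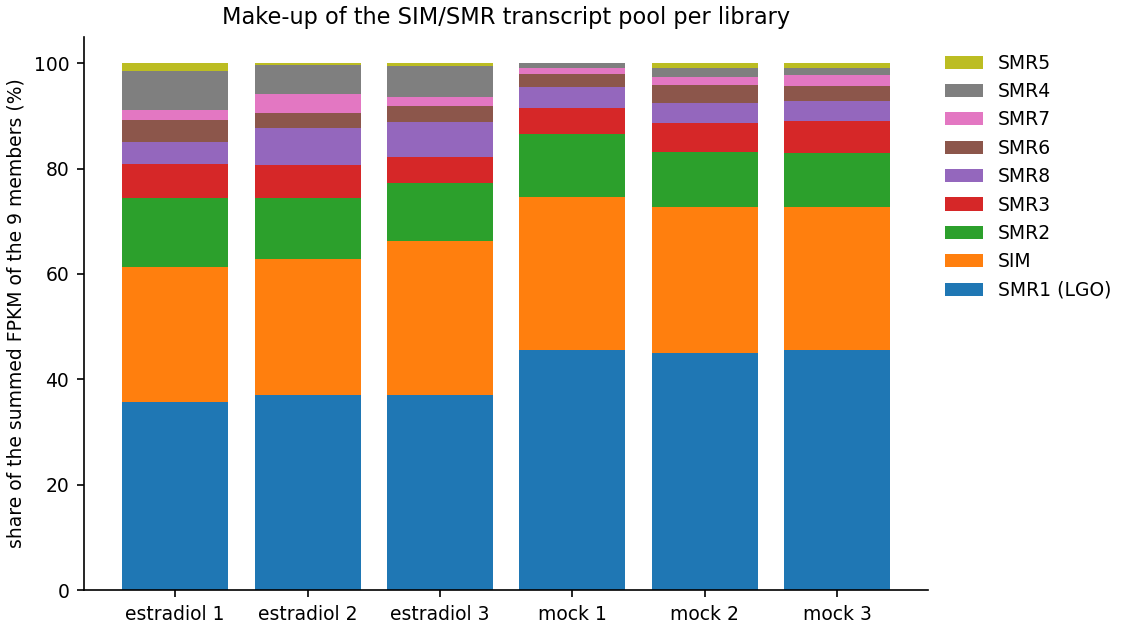
Share of each member in the summed FPKM of the 9 members (%), for estradiol 1 to 3 and then mock 1 to 3, with 1 bar per library. The SMR4 segment runs from 5.41% to 7.42% in estradiol and from 0.915% to 1.66% in mock libraries, while the SMR1 (LGO) segment is 35.7% to 37.1% in estradiol and 45.0% to 45.7% in mock libraries.

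The opposite calls of SMR4 and LGO can also be read as a ratio within each library. LGO was 4.815, 6.84 and 6.21 times as high as SMR4 in estradiol 1, 2 and 3, and 49.9, 27.2 and 32.85 times as high in mock 1, 2 and 3. The mean log2 ratio of SMR4 to LGO, with 1 added to each, was -2.27 ± 0.222 in estradiol and -4.06 ± 0.209 in mock libraries (SD, n = 3 each). The difference of 1.79 is the sum of the sizes of the 2 fold changes given above and adds no evidence to them, so no test is given.

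**Figure D3:**
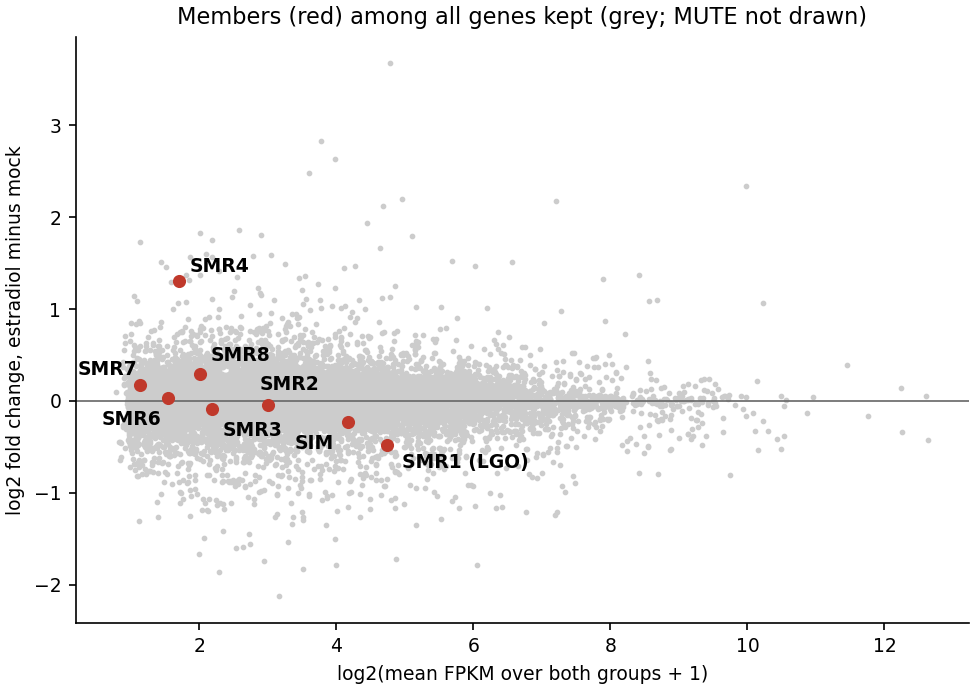
Log2 fold change (estradiol minus mock) against mean level, as log2 of mean FPKM plus 1, for the tested genes (grey, MUTE not drawn) and the 8 tested members (red). SMR4 at 1.31 lies near the upper edge of genes of its level and SMR1 (LGO) at -0.48 below the band around 0, with the others between -0.23 and 0.30.

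The genes whose profile over the 6 libraries was nearest to each changed member were found by the distance between centred log2(FPKM + 1) values. For SMR4 these were APD9 (AT5G66080, distance 0.258), AT4G01335 (0.283) and AT5G67020 (0.325). APD9 averaged 4.12 ± 0.117 FPKM in estradiol and 1.06 ± 0.194 FPKM in mock libraries (SD, n = 3 each), levels close to those of SMR4. AT4G01335 was low in mock libraries, at 0.53 ± 0.159 FPKM, against 3.21 ± 0.407 FPKM in estradiol libraries. For LGO they were CHS (AT5G13930, distance 0.0716), which encodes the flavonoid enzyme chalcone synthase, SULTR1;1 (AT4G08620, 0.0888), a root sulfate transporter, and AT1G66130 (0.0987). SULTR1;1 was near the minimum level, at 0.523 ± 0.0987 FPKM in estradiol and 1.10 ± 0.0666 FPKM in mock libraries. CHS had a log2 fold change of -0.50, at a level of 308.3 ± 24.1 FPKM in estradiol and 436.9 ± 19.8 FPKM in mock libraries. The distance picks genes whose changes are like the member's, so a fold change close to that of LGO follows from the choice.

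The other family of plant CDK inhibitors, the KRP proteins, which resemble animal p27, had no member that rose. Of 7 tested, 0 rose, 2 fell and 5 did not pass, with a median log2 fold change of 0.01. Over all genes 23.3% were higher, 12.9% lower and 36.2% called, with a median of 0.05. The 2 calls of 7 are not many beside the 36.2% called. Whether 2 falls of 7 exceed the 12.9% was not tested. KRP1 was at 5.68 ± 0.139 FPKM in estradiol and 8.99 ± 0.520 FPKM in mock libraries (SD, n = 3 each; log2 fold change -0.58, limma adjusted p 0.000128), and KRP2 fell by 0.30 (limma adjusted p 0.0030). FPKM summed over the 7 was 28.4 to 30.3 in estradiol and 32.8 to 35.8 in mock libraries. Without KRP1 and KRP2 the sum was 14.6 to 16.0 in estradiol and 14.6 to 16.1 in mock libraries, so these 2 genes carried the difference.

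**Figure D4:**
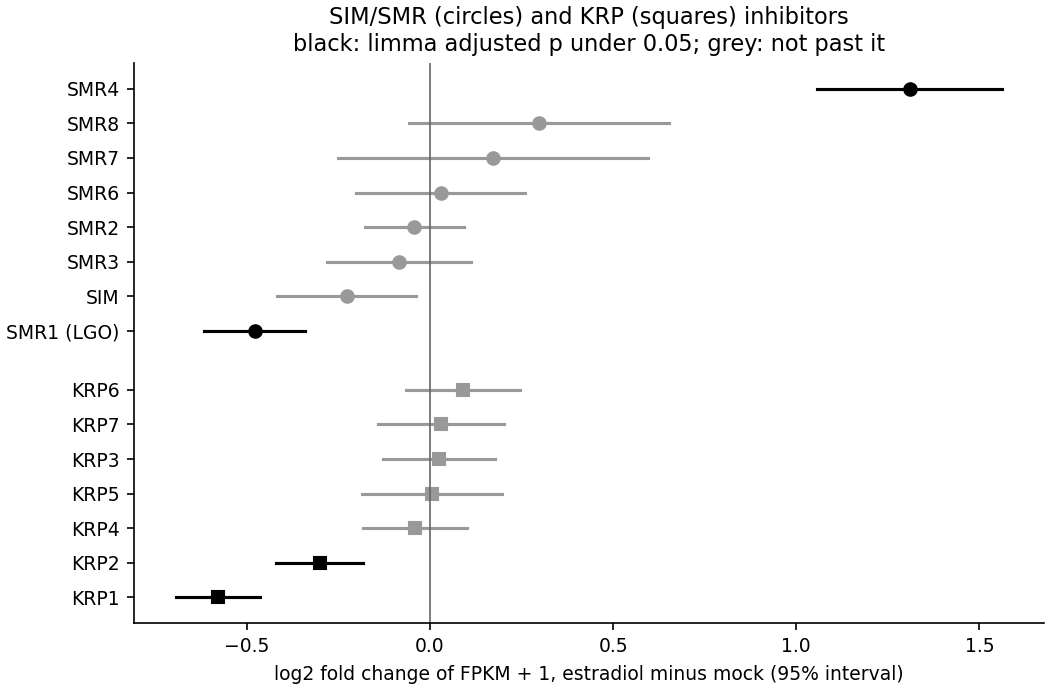
Log2 fold change of FPKM + 1 (estradiol minus mock) of 8 SIM/SMR members (circles) and 7 KRP members (squares), with unadjusted 95% intervals from limma. SMR4 lies at 1.31, and the black symbols left of 0 are SMR1 (LGO), KRP2 and KRP1.

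Of 7 further loci considered as possible relatives, RefSeq calls AT1G51355, AT2G28870 and AT1G60783 SMR-like and the other 4 uncharacterized. RefSeq calls SMR5 uncharacterized as well, so that label does not place a locus outside the family. AT2G28870 was at 2.97 ± 0.360 FPKM in estradiol and 3.45 ± 0.608 FPKM in mock libraries (SD, n = 3 each) and did not pass (log2 fold change -0.16, limma adjusted p 0.281). AT1G51355 stayed below the minimum level, at 0.970 ± 0.215 FPKM in estradiol and 0.860 ± 0.130 FPKM in mock libraries. AT1G60783 was listed at 0 in 4 libraries and at most at 0.03 FPKM. Of these other 4 loci 2 were tested. AT2G28330 did not pass (log2 fold change 0.11, limma adjusted p 0.252). AT3G20898 fell by 0.21 (limma adjusted p 0.0288), a call lost without mock 3, estradiol 2 or estradiol 3 and without a minimum level.

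Most of the kinases and cyclins that such inhibitors can bind rose, as SMR4 did. LGO, KRP1 and KRP2 fell, and the other tested SIM/SMR and KRP members did not pass. Of 21 CDK, CKS, D-type and A2-type cyclin genes, 18 were tested, 16 rose, 0 fell and 2 did not pass (median log2 fold change 0.41, beside 0.05 and 23.3% higher for all genes). The largest rises were those of CYCA2;2 (1.002), an S-to-M phase cyclin, the mitotic kinases CDKB1;1 (0.92) and CDKB2;1 (0.91), CKS2 (0.86), a CDK-docking subunit, and CYCD5;1 (0.74), with limma adjusted p of at most 0.00104. CYCD5;1, a D-type cyclin known as a MUTE target, was at 5.16 ± 0.280 FPKM in estradiol and 2.70 ± 0.119 FPKM in mock libraries (SD, n = 3 each). Against it, SMR4 was lower per length in each group. CDKA;1, the main kinase of the plant cycle, rose by 0.29 (limma adjusted p 0.00148).

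Genes of endoreplication, the process that SIM and LGO promote, were mostly higher. Of 16 listed, 13 were tested, 9 rose, 1 fell and 3 did not pass (median log2 fold change 0.21, beside 0.05, 23.3% higher and 12.9% lower for all genes). OSD1 (0.68), an inhibitor of the anaphase-promoting complex, E2FC (0.37), CDC6 (0.34), a replication licensing factor, and DEL1 (0.30), a repressor of endocycle onset, rose, and GTL1 fell by 0.33 (limma adjusted p at most 0.00414 for these 5). CCS52A1, an activator of the anaphase-promoting complex that promotes endocycles, rose by 0.19 (limma adjusted p 0.011). The listed genes do not all act in 1 direction on endoreplication. DEL1 restrains it, and OSD1 and CCS52A1 act in opposite ways on the anaphase-promoting complex. The number that rose therefore gives no direction for endoreplication itself.

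For SMR5 and SMR7 the DNA damage genes were set alongside. Of 17 listed, 16 were tested, 9 rose, 0 fell and 7 did not pass (median log2 fold change 0.21, beside 0.05, 23.3% higher and 12.9% lower for all genes). The count that rose was 5 when mock 1, mock 3 or estradiol 2 was left out and with the replicate block, and 2 with a minimum of 5 FPKM. After quantile normalization or median-of-ratios scaling 7 rose and 1 fell. TSO2, a ribonucleotide reductase subunit also used in normal replication, rose by 0.85. WEE1, a CDK-inhibiting kinase, rose by 0.48, GMI1 by 0.46, BRCA1 by 0.39 and its partner BARD1 by 0.25 (limma adjusted p at most 0.00626 for these 5). SOG1, listed as ANAC008, did not pass (0.17, limma adjusted p 0.0504). CYCB1;1, at 0.13, did not pass either (limma adjusted p 0.116).

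Regulators known to act with LGO in giant cells or with SIM in trichomes came next. Of 12 listed, 8 were tested, 1 rose, 1 fell and 6 did not pass (median log2 fold change 0.01, beside 0.05 for all genes). The 2 calls are near the 36.2% of all genes called. ATML1, an epidermal factor upstream of LGO in sepals, was at 10.4 ± 0.197 FPKM in estradiol and 10.4 ± 0.243 FPKM in mock libraries (SD, n = 3 each; log2 fold change 0.00049, limma adjusted p 0.993). HDG2, a related factor of the stomatal lineage, rose by 0.89, and CPC, a small MYB protein of hair patterning, fell by 0.31 (limma adjusted p 0.0179), a call lost without mock 1. GL1 and GL3, activators of trichome fate, did not pass, with log2 fold changes of 0.03 and -0.10.

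Of the 7 stomatal transcription factors 6 rose and 0 fell (median log2 fold change 0.75, beside 0.05 and 23.3% higher for all genes). MUTE, the induced gene itself, is 1 of the 6 and is also part of that median. SCRM, the bHLH partner of MUTE, rose by 1.03, FAMA, which acts in guard cell formation, by 0.78, and FLP, a MYB factor that limits divisions of the guard mother cell, by 0.75 (limma adjusted p at most 0.00113). SCRM2 rose by 0.47. Each of these 4 changes was smaller than the 1.31 of SMR4 on the same scale, although the differences were not tested.

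**Figure D5:**
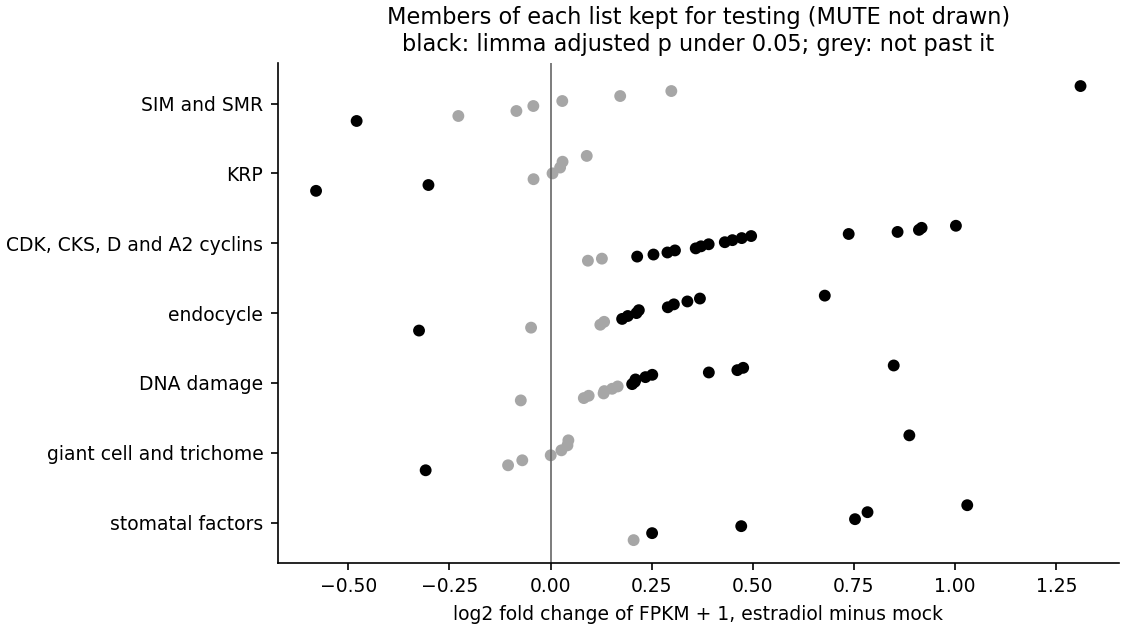
Log2 fold change of FPKM + 1 (estradiol minus mock) of each tested member of 7 gene lists except MUTE, which is not drawn. Points are black where the limma adjusted p was under 0.05 and grey otherwise. The SIM and SMR list runs from -0.48 to 1.31, while the 18 kinase and cyclin genes all lie right of 0.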

How the data were processed

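Messenger RNA of 6 whole-seedling samples, 3 estradiol and 3 mock by their titles, was read in pairs of 50 bases, per the labels. The authors deposited 1 table of FPKM values. The submitters' processing notes name TopHat2 2.0.13, DESeq2 and build TAIR10, with no roles. Neither the quantifier nor the annotation, nor whether libraries were scaled to each other, is given in the sources used here. Further numeric columns, 1 in all, named no sample and were not used. Absolute depth is unknown, and no relative depth is given because a fit to the steps of low values missed known depths on simulated data.

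Row names were paired with loci through RefSeq TAIR10.1, which keeps the nuclear sequence of TAIR10; 96.7% of rows matched. Genes with at least 1 FPKM in at least 3 libraries (19134) entered limma 3.58.1 (R 4.3.3) on the log2(FPKM + 1) scale (eBayes with trend, two-sided, group as the only term, Benjamini-Hochberg over all tested genes, threshold 0.05). The fit was tested on simulated data. Errors are SD of 3 libraries or SE of the fit. The level of MUTE was tested by exact permutation, as was the ratio of SMR4 to LGO for the comparison of alternatives. Tables were handled in Python 3.11.15. The text names all members, MUTE, up to 5 called genes per list with the largest changes, the 3 nearest profiles of each called member, and list genes set beside a member. CCS52A1, SOG1, CYCB1;1, ATML1, GL1, GL3, CDKA;1 and the values of the root and shoot genes were added after their values were seen. Members and lists were chosen with earlier results of these data known. The list genes ILP1 (AT5G08550), UVI4 (AT2G42260), PDF2 (AT4G04890), ACR4 (AT3G59420) and LHCB2.1 (AT2G05100) were not paired with a row; rows named ILP1 and PDF2 carry symbols that RefSeq gives to more than 1 gene, and the row named ACR4 was paired with AT1G69040. Beyond the 17 DNA damage genes listed, 1 further gene is not reported here. Alternatives changed the pseudocount, minimum level, scaling, eBayes trend, replicate block and libraries used.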

Additional observations from a re-analysis of the deposited data

How the results depend on the processing

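SMR4 rose and LGO fell past the threshold in every alternative that tested them, by 1.201 to 1.97 and by -0.53 to -0.42 (log2). With a minimum of 5 FPKM SMR4 was not tested. SIM passed with that minimum (-0.23, adjusted p 0.0472), after quantile normalization (-0.28) and after median-of-ratios scaling (-0.28), and ran from -0.33 to -0.15 when 1 library was left out. SMR8 ran from 0.19 to 0.50 when 1 library was left out. SMR6 changed sign after median-of-ratios scaling (-0.0085). When 1 library was left out, values that did not pass ran across 0 for SMR6 (-0.055 to 0.095), SMR2 (-0.091 to 0.0090) and SMR7 (-0.038 to 0.29). The cause was not tested, although fewer libraries widen intervals by construction.

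Calls over all genes ran from 5337 to 6911. Of the calls 64.3% were higher with estradiol, against 52.8% after quantile normalization and 46.8% after median-of-ratios scaling. Replicate numbers did not pair the libraries (correlations of deviations -0.006, 0.047 and -0.002); with the replicate block 6038 genes passed, the same 2 members among them (SMR4 adjusted p 0.00159, LGO 0.00202). In all, 356 of 382 combinations of a result and an alternative kept their sign and their side of the threshold or, for counts of genes, stayed within 1.5 times the reported count; a count could still change, as that of genes higher with estradiol did (3016 after median-of-ratios scaling, against 4454). The 382 include 8 for the ratio of SMR4 to LGO. These could not change their side of the threshold, because the smallest possible exact permutation p is 0.1. Of the combinations not counted as the same, 5 were stronger, 0 weaker, 16 moved and 5 changed sign. The 16 were counts in lists. Absolute depth is unknown, so no counting error is given for members near 1 FPKM.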
